A study of Mus musculus with 32 samples.

Results

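E14 mouse embryonic stem cells were followed after they left 2iL medium, and the libraries taken at 48 and 60 h after withdrawal were compared with those taken at 24 h. The comparison uses 6 of the 32 libraries of the study, replicates 1 and 2 at each of the 3 times. It sets the mean of the 48 h and 60 h groups against the 24 h group. The 36 h group lies between these times and was left out because 1 of its libraries holds only 7298 counts. E14 is an established line of mouse embryonic stem cells. The medium called 2iL was N2B27, a serum-free medium, to which 3 uM CHIR99021 (which blocks the kinase GSK3), 1 uM PD0325901 (which blocks the kinase MEK) and the cytokine LIF were added. Cells were seeded sparsely as single cells on gelatin, and on the following day the medium was replaced by N2B27 without the inhibitors or LIF, so all 3 groups were in plain N2B27. The study also holds a 2i course, in which LIF was absent from the start and the same inhibitors were withdrawn. Poly(A) RNA was read from the 3′ end of transcripts. How the replicates were made is not in the labels. The p-values come from a fit of all 32 libraries and so rest on a spread between replicates drawn mostly from other groups. That spread may be technical.

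Naive pluripotency is the state of the epiblast before implantation, and a network of transcription factors holds it in culture. LIF supports that network through STAT3, CHIR99021 relieves repression by TCF7L1, and PD0325901 blocks the ERK signal that drives exit. When the supports are removed, cells pass through a formative state like that of the early post-implantation epiblast, and in N2B27 many go on to neural fates.

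Promoters of 4 genes are shown as examples from the naive network and from glycolysis, groups described below. Each run is the 250 bases before a RefSeq transcript start, in the gene's own direction, from build GRCm38.p6. Capitals mark matches, on either strand, to ATGCAAA, a part of the octamer bound by POU factors (its reverse complement in Nanog and Zfp42), to the STAT palindrome TTCNNNGAA in Esrrb and to the E-box CACGTG in Ldha.
Nanog (chr6:122707239-122707488, plus strand): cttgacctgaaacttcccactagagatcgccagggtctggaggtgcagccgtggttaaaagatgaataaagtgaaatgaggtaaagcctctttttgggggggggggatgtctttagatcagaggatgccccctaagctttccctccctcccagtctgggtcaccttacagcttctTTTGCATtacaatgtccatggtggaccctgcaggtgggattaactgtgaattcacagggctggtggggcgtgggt
Zfp42 (chr8:43307010-43307259, minus strand): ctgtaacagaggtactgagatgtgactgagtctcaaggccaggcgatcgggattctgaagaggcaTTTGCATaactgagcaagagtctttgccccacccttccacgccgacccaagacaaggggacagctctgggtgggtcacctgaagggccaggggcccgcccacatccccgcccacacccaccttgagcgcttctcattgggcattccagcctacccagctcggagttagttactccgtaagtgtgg
Esrrb (chr12:86360867-86361116, plus strand): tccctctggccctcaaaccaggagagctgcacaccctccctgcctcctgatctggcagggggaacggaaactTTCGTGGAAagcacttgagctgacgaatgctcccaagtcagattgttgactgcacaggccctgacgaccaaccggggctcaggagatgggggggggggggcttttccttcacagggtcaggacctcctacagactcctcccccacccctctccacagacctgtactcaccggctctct
Ldha (chr7:46845554-46845803, plus strand): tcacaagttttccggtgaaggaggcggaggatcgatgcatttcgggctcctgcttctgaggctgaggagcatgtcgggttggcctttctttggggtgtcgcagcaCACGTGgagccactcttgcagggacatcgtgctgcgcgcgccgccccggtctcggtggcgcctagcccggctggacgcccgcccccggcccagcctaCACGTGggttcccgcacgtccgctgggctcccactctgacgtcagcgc
The match in Nanog lies 75 bases before the start, in Zfp42 185 and in Esrrb 178, and the 2 matches in Ldha lie 145 and 48 bases before it. Of the 23 naive and LIF target genes that fell (below), 19 had an entry, with 27 promoters. ATGCAAA was in 4 of these (14.8%; Nanog, Spp1 and Zfp42) against 1355 of all 32851 promoters (4.12%), and the STAT palindrome was in 2 (7.41%; Esrrb and Socs3) against 2306 (7.02%). The E-box was in 1 of 16 promoters of the 10 glycolysis genes that rose (6.25%; Ldha) against 1978 of all promoters (6.02%). A match describes letters in the window and is not a binding site.

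The 6 libraries held 1122648 to 3438514 counts over 12212 to 15683 detected genes, and the 2 shallowest were those of 24 h, with 1470518 and 1122648 counts. The floor used here for a gene with no count, 3 counts, corresponds to 1.03 to 2.98 CPM (counts scaled to a common library size with TMM factors) per library. The 24 h libraries also differed in composition. Gm42418, a predicted gene that overlaps ribosomal RNA sequence, took 23.9% and 24.7% of their counts, against 15.2% and 11.2% at 48 h and 9.70% and 11.4% at 60 h. The 10 most abundant genes took 30.6% and 30.5%, 25.3% and 19.6%, and 17.9% and 20.3%. The part of depth and composition in the results was not tested beyond the alternative scalings and the fit without Gm42418 given with the results. The likeness of replicates depended on the measure. Over all tested genes, as a description across genes, log2 CPM of the replicates correlated at 0.95 at 24 h, 0.96 at 48 h and 0.98 at 60 h. Of genes with a mean log2 CPM of at least 5, 226 of 4287 (5.27%) differed more than 2-fold between the 48 h replicates, against 47 of 4382 (1.07%) at 24 h and 7 of 4304 (0.163%) at 60 h. Abundant genes thus differed most often at 48 h, and results are also given without 2iL 48 h replicate 1. In these bulk samples, fewer cells of a type and less RNA per cell cannot be told apart.

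Of 11761 genes tested, 1929 (16.4%) changed between 24 h and 48 to 60 h at an adjusted p under 0.05 (edgeR quasi-likelihood test, Benjamini-Hochberg over all tested genes). There were 979 (8.32%) higher and 950 (8.08%) lower at the later times, and the median log2 change of all genes was 0.01. In 1844 of the 1929, the 4 later libraries lay wholly above (956) or below (888) both 24 h libraries. Of the 1929, 973 were also called in the same direction at 48 h and at 60 h taken separately, 629 at 60 h alone, 192 at 48 h alone and 135 at neither. Taken separately, 48 h gave calls in 10.4% of all genes (5.59% higher and 4.79% lower) and 60 h in 16% (8.16% higher and 7.83% lower). Changes over 4-fold (log2 over 2) numbered 287 higher and 251 lower. Without 2iL 48 h replicate 1, 1625 genes were called, 784 higher and 841 lower, and 1504 of them were among the 1929. Leaving out 2iL 24 h replicate 2 lowered the count to 888, and with Gm42418 left out of the library sizes it was 1914. Scaling to total counts without TMM factors gave 1273 higher and 743 lower calls and a median of all genes of 0.11, and DESeq2's size factors in the same test gave 811 higher and 1164 lower.

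**Figure D1:**
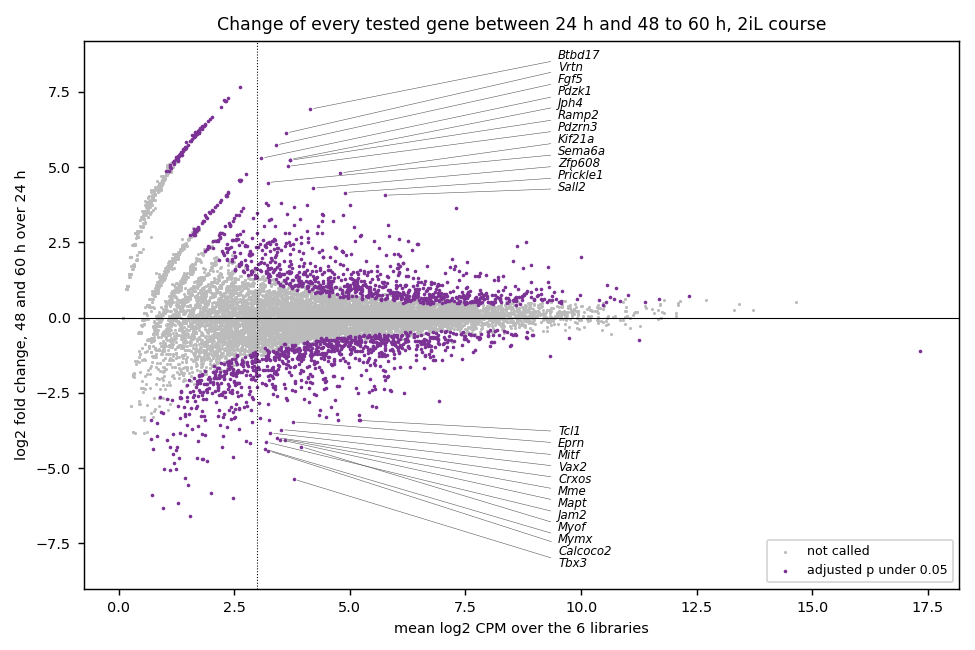
Log2 fold change of 48 and 60 h over 24 h (vertical) against the mean log2 CPM of the 6 libraries (horizontal), 1 point per tested gene of the 2iL course. The 1929 called genes are purple, the dotted line marks the level of 3 needed for naming by size, and the 12 largest rises and 12 largest falls are labelled.

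The naive pluripotency genes fell together. Of 20 members, all tested, 17 fell, none rose, and their median log2 change was -2.50, beside 8.08% lower and a median of 0.01 over all genes. The list was drawn up with earlier results of these data known, so its direction is not independent evidence. Of the 17, 14 kept the call under all alternatives tried. Prdm14, Dppa5a and Fgf4 lost it without 2iL 24 h replicate 1, where the adjusted p was 0.585, 0.0581 and 0.233, and Prdm14 also without 48 h replicate 2 (0.0590) or 60 h replicate 1 (0.0934). Prdm14 was sparse, with 7 counts at 24 h and 2 later. Nanog, the homeodomain factor at the core of the network, stood at 72.8 and 92.5 CPM in replicates 1 and 2 at 24 h, 8.60 and 12.3 at 48 h and 6.13 and 8.98 at 60 h. It fell by 3.22 on the log2 scale (SE 0.24, adjusted p = 6.57e-12). Both 24 h libraries lay far above the 4 later ones, which overlapped each other. Esrrb, an orphan nuclear receptor, went from 102 and 116 CPM to 15.5 and 27.1 and then to 5.75 and 7.39, a fall of 3.21 (SE 0.24, adjusted p = 6.57e-12). Here the 60 h libraries were also below those of 48 h. Tbx3, a T-box repressor, had the largest fall of any gene named by size, from 127 and 140.3 CPM to 5.85 and 6.98 and then to 0.766 and 2.64. It fell by 5.37 (SE 0.26, adjusted p = 1.38e-16).

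Klf4, a zinc finger factor used in reprogramming, dropped stepwise from 515 and 365 CPM at 24 h to 136 and 101 at 48 h and 40.2 and 28 at 60 h, with a fall of 2.78 (SE 0.22, adjusted p = 2.59e-11). Its relatives Klf2 and Klf5 kept more of their level. Klf2 went from 121 ± 13.3 CPM (SD, n = 2) to 35.9 ± 10.3 (n = 4, both times pooled) and Klf5 from 207 ± 34 to 68.2 ± 25.2, falls of 1.77 and 1.66. Tfcp2l1, a grainyhead-like factor downstream of LIF, read 168 and 174 CPM at 24 h, 27.9 and 26.7 at 48 h and 9.58 and 9.51 at 60 h. Its replicates differed little at each time, and the fall was 3.40 (SE 0.21, adjusted p = 5.85e-14). Zfp42, known as Rex1 and widely used as a reporter of the naive state, went from 207 and 242 CPM to 58.5 and 66.5 and then to 26.4 and 23.2. Nr0b1 fell by 3.39, Nr5a2, a nuclear receptor, by 2.50, Spp1, which encodes osteopontin, by 2.36, and Tcl1, an AKT cofactor, fell by 3.41, while Zfp57, which guards imprinted methylation, fell by 1.48. Gbx2 (log2 change 0.28, adjusted p = 0.684) and Tdh, the threonine dehydrogenase of mouse stem cells (-0.09, adjusted p = 0.817), did not pass. Dppa3 did not either, at -0.96 (adjusted p = 0.309) with 9 counts at 24 h and 22 at the later times.

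Genes of the LIF and STAT3 pathway were lower as well. Of 11 members 10 were tested, 8 fell, none rose, and the median was -1.52, beside 8.08% lower and a median of 0.01 over all genes. The list shares Klf4 and Tfcp2l1 with the naive list. Stat3, the transcription factor that carries the LIF signal, went from 79.9 and 98.5 CPM at 24 h to 31.3 and 56.7 at 48 h and 35.2 and 26.9 at 60 h, and fell by 1.26 (SE 0.23, adjusted p = 1.64e-04). Bcl3, an IκB protein induced by STAT3, went from 47.5 and 33.8 CPM to 11 and 14 and then to 5.36 and 5.81, a fall of 2.29 (SE 0.29, adjusted p = 3.83e-07). Pim1, a kinase, fell by 1.76. In all 3 genes the 24 h libraries lay above all later ones, and in Stat3 the 48 h replicates were farthest apart. Socs3, the feedback inhibitor, Junb and the receptor gene Lifr were called but lost the call when a library was left out. The adjusted p was 0.0629 for Socs3 without 2iL 24 h replicate 2, 0.181 for Lifr without replicate 1, and for Junb 0.147 and 0.0944 without replicates 1 and 2 and 0.0713 without 60 h replicate 2. Il6st, the shared receptor chain, read -0.69 (adjusted p = 0.0949).

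Genes that mark pluripotency in both the naive and the primed state did not move as a group. Of 12 tested, 3 rose and 2 fell, beside 8.32% higher and 8.08% lower among all genes. Pou5f1, which encodes OCT4, was at 134 and 76.6 CPM at 24 h, 148 and 84.2 at 48 h and 74.7 and 94.0 at 60 h. The replicates at 24 h and at 48 h differed by more than the times did, and its change of -0.11 (SE 0.30, adjusted p = 0.864) was 0.39 without 2iL 24 h replicate 1 and 0.07 without 48 h replicate 2. Lin28a, which blocks let-7 maturation, rose from 162 and 173 CPM to 488 and 385 at 48 h and 425 and 443 at 60 h, by 1.38 (SE 0.17, adjusted p = 3.39e-07). Tdgf1, the Nodal co-receptor Cripto, fell from 191 and 248 CPM to 103 and 141 and then to 55.9 and 54.9, by 1.41 (SE 0.19, adjusted p = 1.67e-06). The other called genes, Sox2 (-0.65), Utf1 (0.54) and Dppa4 (0.57), were small changes. Each lost the call without 2iL 24 h replicate 1 (adjusted p = 0.0901, 0.171 and 0.0953). Utf1 also lost it without any 1 of 3 other libraries (24 h replicate 2, 48 h replicate 2 or 60 h replicate 1), and Dppa4 without any 1 of 4 (24 h replicate 2, 48 h replicate 1 or either 60 h replicate, adjusted p up to 0.261).

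Formative epiblast genes rose. Of 16 members, all tested, 13 rose and 1 fell, with a median log2 change of 1.92, beside 8.32% higher among all genes. Of the rises, 12 kept the call under all alternatives, and the exception was Zic5 (0.87), with an adjusted p of 0.242 without 2iL 24 h replicate 2. This list too was chosen with earlier results known. Fgf5, the ligand that defines the post-implantation epiblast, had 1 count over both 24 h libraries and 275 over the 4 later ones. The ratio of its shares of counts was 63.4 (95% interval 11.3 to 2513, exact Clopper-Pearson, counting error only). It read 19.95 and 17.7 CPM at 48 h and 39.8 and 37.0 at 60 h, so the later libraries were all above those of 24 h. Pou3f1, known as OCT6, went from 28.5 and 28.9 CPM to 268 and 269 and then to 468 and 505, a rise of 3.65 (SE 0.22, adjusted p = 5.85e-14) with replicates close together at every time. Otx2, a homeobox factor of the epiblast and forebrain, rose from 157 and 149 CPM to 582 and 495 at 48 h and 556 and 634 at 60 h, by 1.88 (SE 0.17, adjusted p = 4.93e-10), with no order between 48 and 60 h.

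Other formative genes followed either course. Lef1, a TCF family factor, went from 28.5 and 26.9 CPM to 185 and 129 at 48 h and 159 and 139 at 60 h, so the later times overlapped. Sall2, a spalt-like zinc finger factor, went from 9.49 and 5.97 CPM to 105 and 109 and then to 167 and 166, a rise of 4.07 (SE 0.27, adjusted p = 6.34e-13). Pim2, a kinase, showed the spread between the 48 h libraries most plainly, at 16.6 and 10.9 CPM at 24 h, 38.9 and 135 at 48 h and 163 and 167 at 60 h. Replicate 1 of 48 h lay between the 24 h libraries and the rest, and the rise was 3.08 (SE 0.48, adjusted p = 1.61e-05). Grhl2, which drives epithelial enhancers, rose by 1.42, Tead2, a Hippo pathway factor, by 1.66, Lin28b by 1.90 and Sox4 by 1.94. Foxd3 and Zic2, the remaining members, did not pass.

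**Figure D2:**
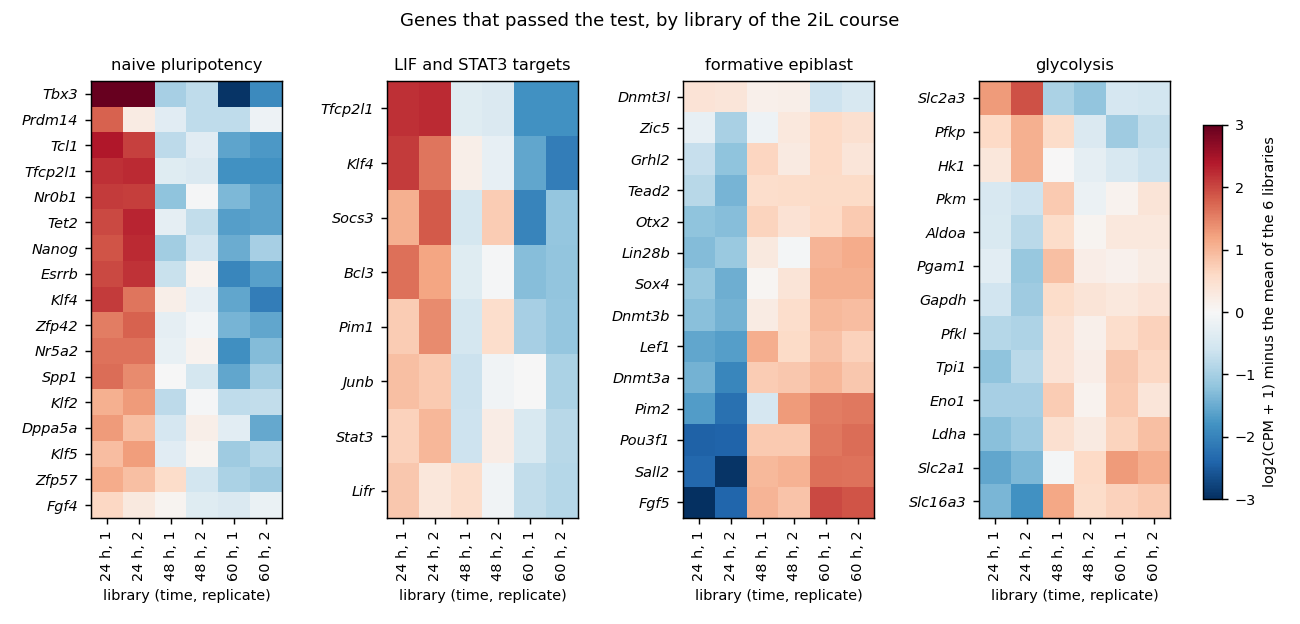
Each row is a gene that passed the test in 1 of 4 lists and each column a library of the 2iL course; the colour is log2(CPM + 1) minus the mean of the 6 libraries, red above and blue below. Naive and LIF genes are red in the 2 columns of 24 h, most formative and glycolysis genes are blue there, and the 48 h columns differ from each other for Pim2 and Socs3.

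Genes that write and erase DNA methylation moved in both directions, with 3 of 9 tested higher and 2 lower, beside 8.32% and 8.08% of all genes. Dnmt3a, a de novo methyltransferase, rose from 166 and 113 CPM at 24 h to 759 and 782 at 48 h and 891 and 781 at 60 h, by 2.51 (SE 0.19, adjusted p = 6.57e-12). Dnmt3b, the other de novo enzyme, rose from 424 and 380.1 CPM to 1201 and 1458 and then to 1994 and 1941, by 2.01 (SE 0.19, adjusted p = 7.94e-10). In both genes every later library exceeded both early ones. Their cofactor gene Dnmt3l was already at 649.5 and 629.8 CPM at 24 h and read 547 and 553 at 48 h and 321 and 350.2 at 60 h. Its fall of 0.58 (adjusted p = 0.0298) is the 1 fall among the formative genes, and it lost the call without 24 h replicate 1 or 2 (adjusted p = 0.178 and 0.152) and without 60 h replicate 1 or 2 (0.0848 and 0.0654). Tet2, a dioxygenase that oxidises methylcytosine, fell from 86.2 and 107 CPM to 17.5 and 12.3 and then to 6.13 and 6.34, by 3.31 (SE 0.26, adjusted p = 1.04e-11). Tet3, of the same family, rose by 1.03 (adjusted p = 0.0447) and lost the call without 24 h replicate 1 or 2, 48 h replicate 1 or 60 h replicate 1 (adjusted p = 0.0513 to 0.426). Tet1 read -0.41 (adjusted p = 0.187) and the maintenance enzyme Dnmt1 0.14 (adjusted p = 0.646), and neither passed.

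Signalling lists held both rises and falls, beside 8.32% higher and 8.08% lower among all genes. In the FGF and ERK list, 5 of 21 tested members rose and 2 fell, the falls close to the share of all genes. Of the 7, Fgf5 and Dusp4 kept the call under all alternatives, and without 2iL 24 h replicate 1 the counts were 3 and 0. Dusp4, a phosphatase that acts on MAP kinases, went from 4.75 and 5.97 CPM to 30.3 and 32.9 at 48 h and 41.0 and 48.1 at 60 h, a rise of 2.80 (SE 0.38, adjusted p = 1.06e-06). The immediate targets Dusp6 (0.21), Spry2 (-0.29), Spry4 (-0.58) and Etv4 (-0.27) did not pass. Etv5 rose (0.68, adjusted p = 0.00560) and Etv1 fell (-0.80, adjusted p = 0.00249), and each lost the call under at least 1 alternative. In the Nodal list, 2 of 13 rose and 5 fell, and without 2iL 24 h replicate 2 the counts were 2 and 2. Skil, a SMAD corepressor, rose from 19.8 and 11.9 CPM to 101 and 90.8 and then to 127 and 107, by 2.71 (SE 0.27, adjusted p = 2.48e-09). Smad7, the inhibitory SMAD, fell from 30.1 and 19.9 CPM to 1.72 and 4.93 and then to 1.15 and 1.06, by 3.69 (SE 0.41, adjusted p = 2.29e-08). These inhibitors of the pathway thus went opposite ways, while the receptor gene Acvr2b rose by 0.94. The ligand gene Nodal (-0.94), Lefty1 (-1.90) and Lefty2 (-1.78) were called, but not without 2iL 24 h replicate 2 (adjusted p = 0.565, 0.575 and 0.0631). Lefty1 also lost the call without 48 h replicate 1 or 60 h replicate 1 (0.108 and 0.149).

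Among Wnt pathway genes, 1 of 14 beta-catenin targets and TCF factors rose and 3 fell. The shares to set beside this and the next lists were 8.32% higher and 8.08% lower among all genes. Lef1 (above) was the rise. Notum, a secreted Wnt deacylase and target of the pathway, fell from 15.8 and 16.9 CPM to 0.344 and 3.29 at 48 h and 1.92 and 3.17 at 60 h, by 2.95 (SE 0.54, adjusted p = 1.59e-04). The other falls, Ccnd1 (-0.67) and Tcf7l1 (-0.63), lost the call without 2iL 24 h replicate 2 (adjusted p = 0.134 and 0.211). Axin2, the usual readout of the pathway, read -1.21 (adjusted p = 0.192). Of 10 frizzled receptors and secreted Wnt antagonists tested, 3 rose and 2 fell, and the 2 falls kept the call under all alternatives. Sfrp1, a secreted Wnt antagonist, fell from 168 and 203 CPM to 34.4 and 16.4 and then to 21.5 and 22.2, by 2.96 (SE 0.23, adjusted p = 1.20e-11), and the receptor gene Fzd5 fell from 128 ± 2.51 CPM (SD, n = 2) to 27.2 ± 6.85 (n = 4), by 2.26. Both were as low at 48 h as at 60 h within the spread of their libraries. In the BMP list 1 of 11 rose and 2 fell, and the fall that held under all alternatives was Id4, an inhibitor of basic helix-loop-helix factors, at -2.46 (adjusted p = 1.79e-04). In the Notch list 3 of 14 rose. Hes6, a neurogenic HES family member, rose from 28.5 and 17.9 CPM to 95.6 and 134 and then to 159.8 and 172, by 2.54 (SE 0.22, adjusted p = 1.19e-10), and Lfng, a glycosyltransferase that modifies Notch, rose by 2.35. Hes5, a direct Notch target, had 2 counts at 24 h and 15 later and did not pass (adjusted p = 0.956). The third rise, Dll1 (1.41, adjusted p = 0.0438), did not keep the call in 12 of 18 other fits. In the retinoic acid list 2 of 9 rose (Crabp2 and Rxrg) and none fell, and both rises were lost when 1 library or another was left out.

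Neural genes split. Of 20 tested members of the neural plate list, 6 rose and 5 fell, beside 8.32% and 8.08% of all genes. Of these members, 2 in each direction kept the call under all alternatives. Without 2iL 24 h replicate 1 the counts were 2 and 2, and without replicate 2 they were 2 and 4. Sox11, a SoxC factor, rose from 172 and 138 CPM at 24 h to 368 and 319 at 48 h and 428 and 377 at 60 h, by 1.26 (SE 0.15, adjusted p = 1.92e-07). Nes, the intermediate filament nestin, rose from 18.2 and 13.9 CPM to 36.1 and 32 and then to 59.4 and 54.9, by 1.44 (SE 0.24, adjusted p = 4.09e-05). Meis2, a homeobox factor, fell from 52.2 and 61.7 CPM to 15.1 and 11.9 and then to 7.28 and 6.34, by 2.54 (SE 0.24, adjusted p = 8.19e-10), and Ncam1, a cell adhesion molecule, fell by 1.40. The defining neural plate genes were low, with Sox1 at 7.91 and 5.97 CPM at 24 h and 1.15 to 3.10 CPM later, and Pax6 at 13.4 and 12.9 CPM and then 3.70 to 11.1 CPM (-1.09, adjusted p = 0.0700). The fall of Sox1 (-1.67, adjusted p = 0.0133) lost the call without 2iL 24 h replicate 1 or 2 or 60 h replicate 1 (adjusted p = 0.205, 0.0511 and 0.0577). Of 13 neuronal differentiation genes 6 rose and 2 fell, and without 2iL 24 h replicate 1 the counts were 4 and 1. Ina, a neurofilament protein, rose from 25.3 and 30.8 CPM to 158 and 156 and then to 149 and 152, by 2.46 (SE 0.22, adjusted p = 3.42e-10). All 4 later libraries were alike, and all lay above those of 24 h. Neurod1, a proneural factor, rose by 2.17 and Gap43, a growth cone protein, by 1.71, while the neuronal tubulin gene Tubb3 read 0.19 (adjusted p = 0.689). The 2 falls were Stmn2, with 806 counts at 24 h (-1.15, adjusted p = 2.22e-04), and Nefl (-0.98, adjusted p = 0.00188). Both lost the call with 48 h taken alone.

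Epithelial genes were higher, at 6 of 13 tested and none lower, beside 8.32% and 8.08% of all genes. Of the 6, only Cdh1, Epcam and Esrp1 kept the call under all alternatives. Cdh1, which encodes E-cadherin, rose from 379.8 and 408 CPM to 561 and 786 at 48 h and 1038 and 871 at 60 h, by 1.03 (SE 0.20, adjusted p = 4.21e-04). Epcam, an adhesion molecule, rose from 80.7 and 61.7 CPM to 207 and 209 and then to 236 and 226, by 1.61 (SE 0.16, adjusted p = 1.77e-09), and Esrp1, an epithelial splicing factor, from 10.3 and 9.95 CPM to 69.1 and 58.7 and then to 82.0 and 64.4, by 2.75 (SE 0.26, adjusted p = 7.42e-10). In all 3 genes the later libraries lay above those of 24 h. Of 15 matrix and mesenchymal genes 2 rose and 4 fell, and Lamb1 and Lama1 kept the call under all alternatives. The laminin chains went apart, with Lamb1 higher by 1.54 (SE 0.24, adjusted p = 9.88e-06) and Lama1 lower by a log2 change of -2.88 (SE 0.47, adjusted p = 2.85e-05) and Lamc1 at -0.97 (SE 0.22, adjusted p = 0.00137). Vim (-0.44, adjusted p = 0.0633) and Fn1 (-0.31, adjusted p = 0.266) did not pass.

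Glycolysis was the metabolic list with the most calls. Of 17 tested members 10 rose and 3 fell, with a median log2 change of 1.06. Among all genes 8.32% rose and 8.08% fell, with a median of 0.01. Slc2a1, the glucose transporter GLUT1, rose from 26.9 and 30.8 CPM to 77.1 and 122 at 48 h and 197 and 174 at 60 h, by 2.24 (SE 0.26, adjusted p = 7.81e-08), while Slc2a3, the transporter GLUT3, fell from 103 and 158 CPM to 21 and 17.7 and then to 29.1 and 28, by 2.46 (SE 0.20, adjusted p = 3.39e-11). The transporters thus moved in opposite directions, each without overlap between early and late libraries. Along the pathway, Pfkl, a phosphofructokinase, rose by 1.37 while the related Pfkp fell by 1.23 (SE 0.21, adjusted p = 4.61e-05), and Aldoa, an aldolase, rose by 0.95. Ldha, which turns pyruvate into lactate and whose promoter is shown above, rose from 203 and 227 CPM to 679.7 and 579 and then to 774 and 909, by 1.76 (SE 0.16, adjusted p = 5.31e-10). At 0 h of the 2iL course Ldha had read 496 and 514 CPM, so its 24 h libraries lay below the level before withdrawal. Slc16a3, the lactate exporter MCT4, rose from 150.3 and 110.4 CPM to 865 and 572 and then to 631 and 672, by 2.38 (SE 0.19, adjusted p = 2.33e-11). The rises of Tpi1 (1.54) and Eno1 (1.55), and that of Gapdh (1.23), are left uncertain. These genes have near-identical pseudogene copies and only uniquely aligned reads were counted. The effect of this on their changes was not tested. Hk2, a hexokinase, read -0.20 (adjusted p = 0.394), and Hk1 fell by 1.10. Leaving out 2iL 24 h replicate 2 took the list to 7 rises and 2 falls, ending the calls of Hk1 (adjusted p = 0.240), Gapdh (0.0547), Pgam1 (0.0713) and Pkm (0.155). Pkm, a pyruvate kinase, also lost the call without 24 h replicate 1 (adjusted p = 0.0589) or 48 h replicate 1 (0.0764). Of 19 nuclear genes of the respiratory chain none rose and 1, Cox5a, fell (-0.78), with 2 at an unadjusted p under 0.05 and 0 called by DESeq2. It lost the call without 2iL 24 h replicate 1 or 2, 48 h replicate 1 or 60 h replicate 1 (adjusted p = 0.0600, 0.339, 0.125 and 0.0958).

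Among cell division genes no rise was called. None of 15 DNA replication genes passed by edgeR (0 at an unadjusted p under 0.05, and 0 by DESeq2). In the mitosis list 0 of 15 rose and 2 fell, beside 8.32% higher and 8.08% lower among all genes. Ccnb2, cyclin B2, fell by 0.85 (adjusted p = 0.00284) and Bub1b by 0.56 (adjusted p = 0.00964), the latter lost without 2iL 24 h replicate 2 or 60 h replicate 2 (adjusted p = 0.189 and 0.0580). Of the G1 genes 3 of 12 fell, beside 8.08% of all genes. Ccnd3, cyclin D3, went from 262 and 215 CPM to 104 and 143 and then to 107 and 128, a log2 change of -0.99 (SE 0.17, adjusted p = 5.24e-05), and Cdk6, its partner kinase, fell by 1.24 (SE 0.18, adjusted p = 3.34e-06).

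**Figure D3:**
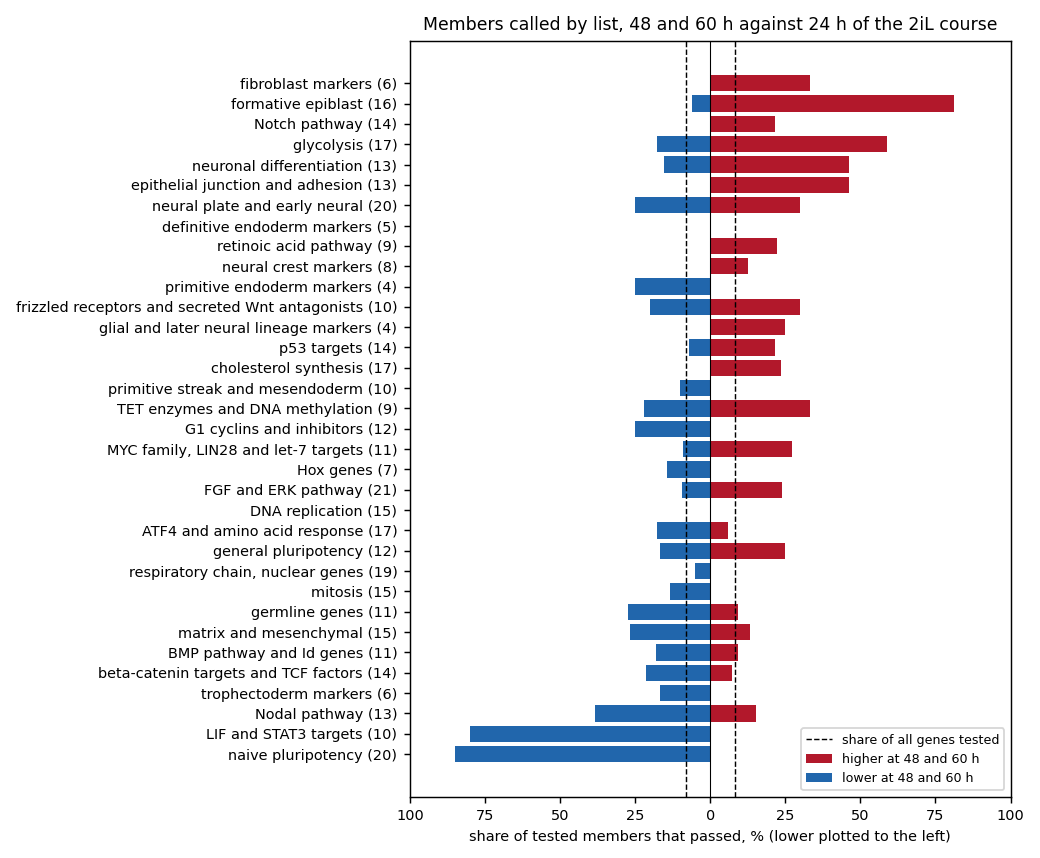
For each list (tested members in brackets) the bars give the percentage of tested members that rose (red, to the right) or fell (blue, to the left) between 24 h and 48 to 60 h, sorted by median change; dashed lines mark the 8.32% and 8.08% of all genes. The naive and LIF lists have bars to the left only, and the formative and glycolysis bars reach farthest to the right.

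Markers of other cell types were low throughout. The summed level of 12 primitive endoderm markers was 29.3 to 33.8 CPM in the 24 h libraries and 17.3 to 22.2 CPM later, and that of 10 trophectoderm markers 46.8 to 51.4 and 20.3 to 34.5 CPM, with Plac1 at 0. Definitive endoderm markers summed to 84.6 to 87.8 CPM and then 49.9 to 92.8 CPM, and neural crest markers to 45.9 to 49.7 and 35.1 to 73.5 CPM, with Sox10 and Msx2 at 0. The sums that were higher in all later libraries were those of fibroblast markers (2.98 to 3.96 and then 15.3 to 22.2 CPM, with Col3a1 at 0) and of glial and later neural markers (13.9 to 36.4 and then 40.7 to 51.3 CPM, with Olig1, Olig2 and Gfap at 0). The sum of 2-cell-like markers was 0.995 to 5.54 and 2.30 to 3.78 CPM. Few single markers were called. Lower were 1 of 4 tested for primitive endoderm and 1 of 6 for trophectoderm, beside 8.08% of all genes. Higher were 2 of 6 for fibroblasts, 1 of 8 for neural crest and 1 of 4 for glia and later neural lineages, beside 8.32%. By edgeR 0 of 5 passed for definitive endoderm (0 at an unadjusted p under 0.05, and 0 by DESeq2). The calls for fibroblasts (Dcn, with 0 counts at 24 h and 63 later, and Thy1), neural crest (Msx1) and glia (Mbp) were each lost under at least 1 alternative, and without 2iL 24 h replicate 1 neither fibroblast gene passed (adjusted p = 0.0545 and 0.152). The part of these cells in the results was not tested. Primitive streak genes gave 1 fall in 10 tested, Evx1, with 7 counts at 24 h and 3 later. The ratio of its shares was 10.1 (24 h over later, 95% interval 2.31 to 60.7), and its call (adjusted p = 0.0335) was lost without 2iL 24 h replicate 1 or 2, 48 h replicate 2 or 60 h replicate 2 (adjusted p = 0.334, 0.0771, 0.0699 and 0.0816).

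Among genes with a mean log2 CPM of at least 3 and no overlap, 750 rose and 635 fell, and the 12 largest changes each way kept the call under all alternatives. The largest rises began near nothing. Btbd17 (chr11:114791217-114795945, minus strand), a BTB domain gene, had 1 count at 24 h and 664 later, a ratio of 153 (95% interval 27.4 to 6054), and read 42 and 29.99 CPM at 48 h and 105 ± 6.98 (SD, n = 2) at 60 h. Vrtn, a regulator of vertebral number, had 1 and 348 counts, a ratio of 80.2 (14.3 to 3177). With 1 or 2 counts at 24 h, the same held for Fgf5 (above), Pdzk1 (ratio 45.6, 8.10 to 1812), Jph4 (42.2, 11.6 to 350), Ramp2 (40.1, 11 to 332), Pdzrn3 (34.8, 9.55 to 289) and Sema6a (24.8, 6.78 to 206). In all 8 the later libraries were well above the 24 h floor of 1.32 CPM. Of rises with more counts, Kif21a, a kinesin, went from 2.78 ± 1.70 CPM (SD, n = 2) to 75.9 ± 15.5 (n = 4), a log2 change of 4.81, and Zfp608 rose by 4.30, Prickle1, a planar polarity gene, by 4.16 and Sall2 by 4.07. The largest falls were, after Tbx3, Calcoco2, an autophagy receptor (-4.42), Mymx, a fusion peptide of muscle (-4.37), Myof (-4.29), Jam2, a junction protein (-4.13), Mapt, which encodes tau (-4.05), Mme, the peptidase neprilysin (-4.05), Crxos (-3.99), Vax2 (-3.83), Mitf (-3.72), Eprn (-3.46) and Tcl1 (-3.41). Calcoco2 was at 54.6 and 65.7 CPM at 24 h and at 2.05 to 3.45 CPM in the 4 later libraries.

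Between 48 and 60 h themselves, 138 of 11761 genes (1.17%) were called, 67 higher (0.57%) and 71 lower (0.604%) at 60 h. This count rests on the shared fit, since with only the libraries of those 2 groups edgeR called 0 genes (728 at an unadjusted p under 0.05) and DESeq2 called 14. It was 19 without 2iL 48 h replicate 1, 5 and 6 without 60 h replicates 1 and 2 and 565 without 48 h replicate 2. Of the 138, 97 were also called at 48 to 60 h against 24 h in the same direction and 2 in the opposite one. Prtg, an immunoglobulin superfamily gene of the early neural tube, went from 8.94 and 13.6 CPM at 48 h to 52.9 and 29.1 at 60 h, a log2 change of 1.90, and Btbd17 rose by 1.53. Of 20 naive genes, 6 were called lower at 60 h and 0 higher, beside 0.604% and 0.57% of all genes. Nanog was not called (-0.48, adjusted p = 0.641). The log2 changes of Klf4 (-1.78), Tfcp2l1 (-1.51), Esrrb (-1.69) and Zfp42 (-1.32) were negative in this fit and were not followed under the alternatives. Rnpep (1.92), Dtx4 (1.66) and Minar1 (1.63) completed the 5 largest rises, and Mymx (-2.74), Apol6 (-2.46), Crxos (-2.18), Tbx3 (-1.98) and Enox1 (-1.96) were the 5 largest falls. Each of these 10 lost the call with only the compared libraries, where 0 genes were called, so that loss does not tell them apart. Over 13 other fits Tbx3 (adjusted p = 0.0478 in the shared fit) lost the call in 11, Mymx and Minar1 in 6 and Crxos and Rnpep in 5. Apol6 and Enox1 lost it in 3 and Dtx4 in 2. Over 14 other fits Prtg lost it in 2 and Btbd17 in 1.

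The same step in the 2i course, 48 and 60 h against 24 h, used 6 other libraries, so that the steps share no library. There 2909 genes (24.7%) were called, 1527 higher (13%) and 1382 lower (11.8%). The steps differed in 1666 genes (14.2%), 998 (8.49%) with a more positive step in the 2iL course and 668 (5.68%) with a more negative one. Of the 979 genes that rose in the 2iL course, 434 had a more positive step than in the 2i course and 5 a more negative one, and of the 950 that fell, 314 had a more negative and 49 a more positive step. With DESeq2's size factors the split was 642 and 956 and the median difference over all genes -0.16, against 0.04, so the direction of the balance depends on scaling.

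The courses stood apart at 24 h, and for some of these genes already at 0 h. At 0 h, Klf4 read 682 and 652 CPM in the 2iL course and 134 and 90.4 in the 2i course. Tfcp2l1 read 950 and 990 against 372 and 389, and Dnmt3a 36.3 and 38.9 against 204 and 190. Nanog was alike at 0 h, at 182 and 213 against 179 and 177 CPM. Nanog was at 82.7 ± 14 CPM (SD, n = 2) at 24 h of the 2iL course and at 6.86 ± 0.919 at 24 h of the 2i course, Klf4 at 440.1 ± 106 and 14.1 ± 0.161, and Tfcp2l1 at 171 ± 4.52 and 12.9 ± 7.93. The 2i course was thus already at or below the level that the 2iL course had at 48 to 60 h, which was 9.01, 76.4 and 18.4 CPM on average. For these genes the step was more negative in the 2iL course by 4.78, 3.23 and 2.72 (adjusted p = 1.21e-10, 6.07e-07 and 4.09e-06). Formative genes mirrored this. Pou3f1 was at 28.7 ± 0.262 CPM at 24 h of the 2iL course and 407 ± 40.1 at 24 h of the 2i course, and Dnmt3a at 139.8 ± 37.3 and 849.9 ± 112, where the 2iL course averaged 377 and 803 CPM at 48 to 60 h. Their steps differed by 3.79 (SE 0.27, adjusted p = 3.35e-12) and 4.16 (SE 0.25, adjusted p = 9.55e-14). Over the lists, the step was more positive in the 2iL course for 13 of 16 formative, 8 of 12 general pluripotency and 12 of 17 glycolysis genes, beside 8.49% of all genes, and more negative for 9 of 20 naive and 6 of 20 neural plate genes, beside 5.68%. It was also more positive for 5 naive genes. Among the neural genes, Sox1 fell in the 2iL course as given above, and in the 2i course it went from 2.42 CPM at 24 h to 12.1 at 48 h and 66.9 at 60 h.

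**Figure D4:**
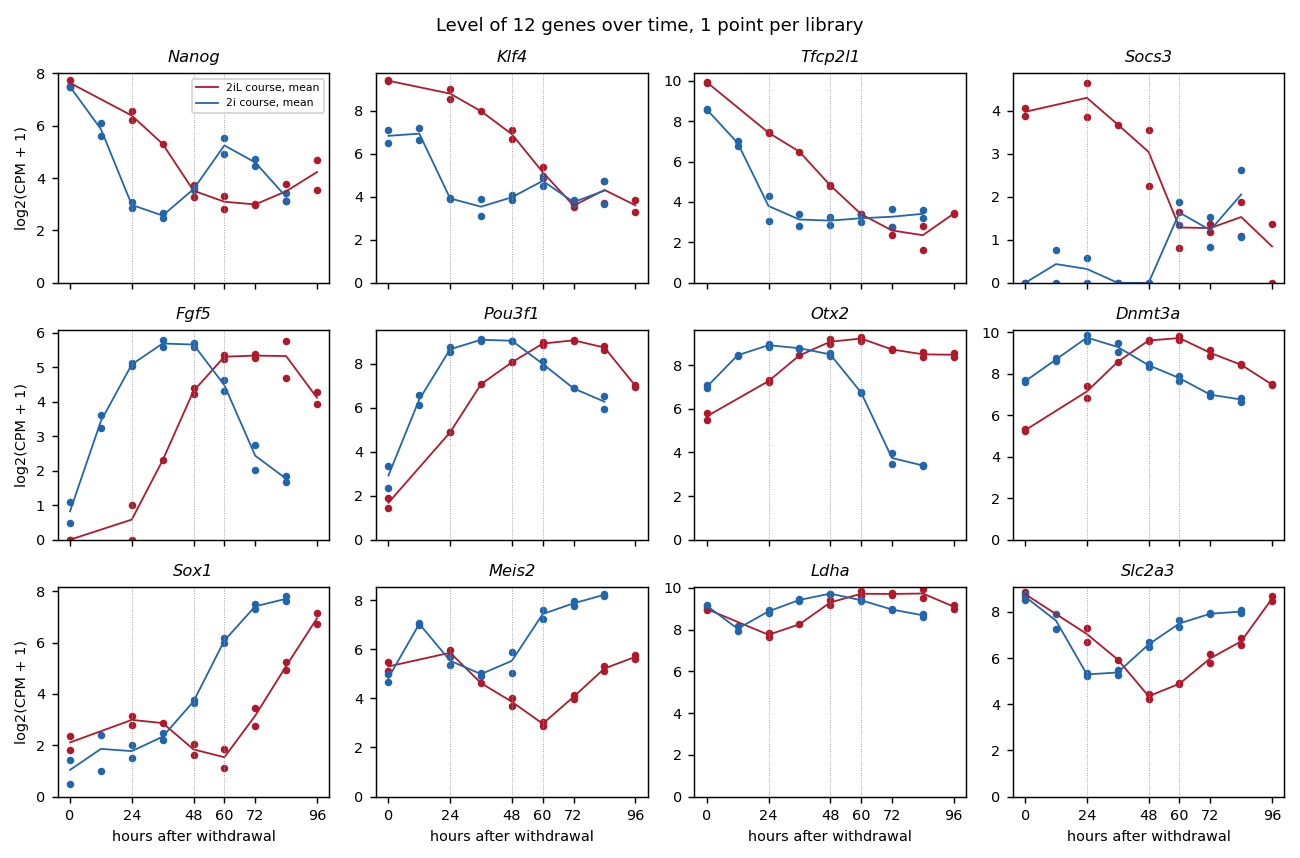
Level of 12 genes as log2(CPM + 1) (vertical) against hours after withdrawal (horizontal), 1 point per library and a line through the means, for the 2iL course in red and the 2i course in blue. Dotted lines mark 24, 48 and 60 h; Nanog and Klf4 are high at 24 h in the 2iL course alone, and Pou3f1 and Dnmt3a are high at 24 h in the 2i course alone.

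**Figure D5:**
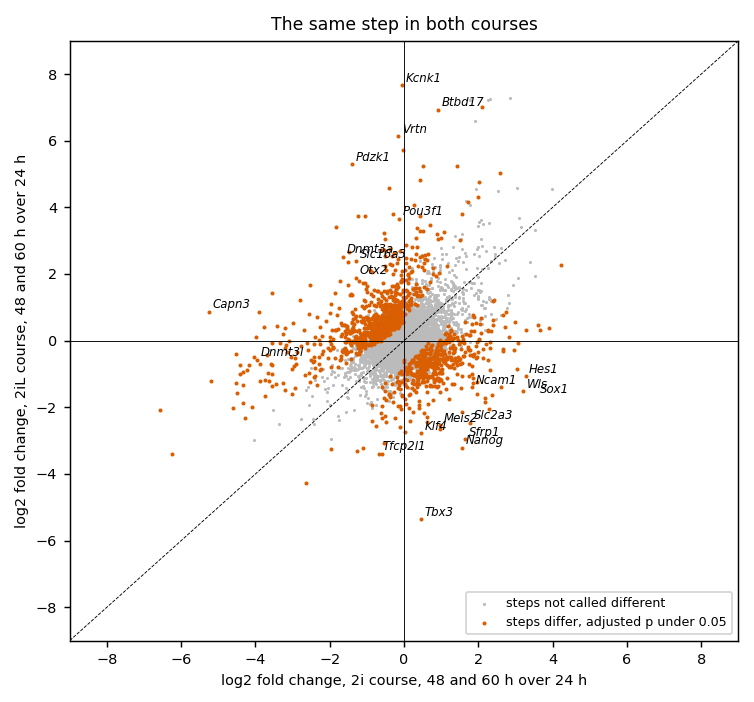
Log2 fold change of 48 and 60 h over 24 h in the 2iL course (vertical) against that in the 2i course (horizontal), for genes with a mean log2 CPM of at least 3 over the 12 libraries. Orange points are genes whose steps differ at an adjusted p under 0.05, the dashed line marks equal steps, and Nanog and Tbx3 lie far below it.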

How the data were processed

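RNA was measured in 32 libraries, 2 for each of 16 groups, of which 6 are compared here. Per the submitters' processing notes, bcl2fastq, STAR 2.6.0a, HTSeq and build mm10 were used. The annotation release and strand setting are not given in the sources used here, so reads of overlapping antisense genes cannot be told apart. The authors deposited counts of uniquely aligned reads for 31053 genes per library. Their 5 summary lines per file were left out: between 23.4% and 34.8% of uniquely aligned reads of the 6 libraries lay outside genes. GENCODE M21 named 30934 IDs and left 119 without a symbol.

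All 32 libraries were fitted with edgeR 4.0.16 in R 4.3.3 (TMM, filterByExpr, a coefficient per group, 16 residual degrees of freedom, common dispersion 0.0215), which tested 11761 genes. The fit kept edgeR's default prior count, and a prior count of 2 was used for log2 CPM only. Its quasi-likelihood functions glmQLFit and glmQLFTest gave p-values, with Benjamini-Hochberg adjustment over all of them, and a gene is said to rise or fall at an adjusted p under 0.05. CPM use the TMM factors. Replicate numbers come from the labels. In the report, a gene with 1 to 3 counts in a group gets a ratio with an exact 95% interval in place of a fitted fold, and one with 0 a bound against 3 counts over the group or its counts alone. On data simulated for the 48 to 60 h against 24 h comparison (11761 genes), 67% of 100 genes changed by log2 1 and 98% of 100 changed by log2 2 were recovered, and 5 unchanged genes were called. The changed genes were drawn from better expressed genes only. The simulation held no shift in composition at 24 h and no differing 48 h library, so these rates do not cover sparse genes or such features of the data.

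The groups compared and the 35 lists (462 genes) were chosen with earlier results of these data known. Named genes are list members, the 12 largest rises and 12 largest falls (mean log2 CPM of at least 3, libraries that do not overlap) and the 5 largest each way of the other 2 comparisons, predicted genes left out. Alternatives were DESeq2 1.42.0, other scalings, no filter, other sets of libraries, a replicate block, each replicate left out and each time alone. Leaving out Gm42418 was added after the data were seen.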

Additional observations from a re-analysis of the deposited data

Results flagged for a closer look

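The step from 24 h to 48 and 60 h differed between the 2iL and the 2i course in 1666 genes (edgeR test of the difference itself, adjusted p under 0.05), and the genes named for it are given here as the log2 step of the 2iL course minus that of the 2i course. The positive differences named by the rule on size were Kcnk1 at 7.72, Pdzk1 at 6.69, Vrtn at 6.29, Capn3 at 6.12 and Btbd17 at 6.0. Kcnk1 had 0 counts and Pdzk1, Vrtn and Btbd17 had 1 count at 24 h of the 2iL course. The fitted values of these genes and their order therefore depend on the default prior count of the fit and measure no size. That of Btbd17 ran from 5.27 to 8.95 over the alternatives. Kcnk1 had 134 counts at the later times and was at least 10.3-fold higher than the 24 h floor. Capn3 is different, since it rose little in the 2iL course (0.87, adjusted p = 0.180) and fell by 5.25 in the 2i course. The largest negative differences were Tbx3 at -5.83, Nanog at -4.78, Wls at -4.72, Sfrp1 at -4.60 and Hes1 at -4.34. Wls, which carries Wnt proteins to the cell surface, and Hes1 rose in the 2i course by 3.20 and 3.27.

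Among 20 naive genes, 9 had a more negative step in the 2iL course, such as Klf4 at -3.23 and Tfcp2l1 at -2.72, and 5 a more positive one. Of 16 formative genes, 13 had a more positive step, with Otx2 at 3.18, Pou3f1 at 3.79, Dnmt3a at 4.16 and Dnmt3l at 3.39. Dnmt3l fell by 3.96 in the 2i course. Of 20 neural plate genes 6 had a more negative step and none a more positive one, and of 13 neuronal genes 4 and 2. Named among them were Sox1 at -5.24, Meis2 at -3.50 and Ncam1 at -3.24, and the glucose transporter Slc2a3 differed by -4.23 and the lactate exporter Slc16a3 by 3.68. All these genes kept direction and call in the 21 other fits of the difference.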

How the results depend on the processing

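At 48 and 60 h against 24 h, 1929 genes were called. The count moved by over 1.5 times with DESeq2 (921, of which 920 were among the 1929) and with only the 6 compared libraries (1156). It also moved that far with 48 h alone (1220) and without 2iL 24 h replicate 2. Leaving out 1 library at a time gave 888 to 2251. The other alternatives gave 1370 to 2307. At 60 h against 48 h the count of 138 became 14 with DESeq2, 14 with the 2iL course libraries alone, 213 with no filter on low counts, 0 with only the compared libraries, and 5 to 565 with 1 library left out. For the difference between courses the count of 1666 became 711 with DESeq2 and 1059 to 1933 with 1 library left out, and the other alternatives gave 1539 to 2407. The cause was not tested, except that fits on fewer libraries have fewer degrees of freedom. Pou5f1, not called in the fit reported, changed sign to 0.39 without 2iL 24 h replicate 1, 0.07 without 48 h replicate 2 and 0.13 with 48 h alone, and ranged from -0.44 to 0.39 with 1 library left out. Of 194 named values that were called, 117 kept direction and call under all alternatives and 77 lost the call under at least 1.

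With the replicate block, 1884, 135 and 1643 genes were called in these comparisons, and 1871 of the 1884 were among the 1929. Replicate numbers do not pair these libraries: the deviations of replicates correlated at 0.05, -0.09 and -0.10 between 24 and 48 h, 24 and 60 h, and 48 and 60 h of the 2iL course over 8124 genes. At 24 h, where depth was lowest, 3 counts over both libraries amount to 1.32 CPM, against 0.305 CPM over the 4 later ones.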

Other observations

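Further gene groups changed in part, beside 8.32% higher and 8.08% lower among all genes. Of 17 cholesterol synthesis genes 4 rose and none fell, with 7 at an unadjusted p under 0.05. Fdps rose by 1.35 and Mvd by 1.65, with the replicates of Mvd far apart at 284 and 131 CPM at 24 h and 942 and 469 CPM at 48 h. Of 14 p53 targets 3 rose and 1 fell. Phlda3, an AKT inhibitor, rose by 1.11 and Zmat3, an RNA-binding protein, by 0.85, while Cdkn1a, which encodes p21, read 0.04 (adjusted p = 0.944). The third rise, Bax (1.03), lost the call without 2iL 24 h replicate 2 (adjusted p = 0.203), and the fall of Sesn1 lost it in 11 of 18 other fits. In the list of MYC, LIN28 and let-7 targets 3 of 11 rose and 1 fell. Hmga2, a let-7 target, fell by 2.18 (SE 0.27, adjusted p = 2.75e-07) while Lin28a and Lin28b rose (1.38 and 1.90). In the amino acid response list 1 of 17 rose and 3 fell, among them Asns, asparagine synthetase, by 1.18 (SE 0.21, adjusted p = 8.56e-05) and Cth by 2.15. The rise of Ddit4 (1.30, adjusted p = 0.0153) and the fall of Shmt2 (-0.65, adjusted p = 0.0217) lost the call without 2iL 24 h replicate 2 (adjusted p = 0.230 and 0.314), and Atf4 itself read 0.22 (adjusted p = 0.437).

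Of 11 tested germline genes 1 rose and 3 fell, beside 8.32% and 8.08% of all genes. Stk31 fell by 1.32 and Tuba3a by 1.19. Dazl (-1.28) and Tdrd1, which had 0 counts at 24 h and 34 later, lost the call without 2iL 24 h replicate 2 (adjusted p = 0.215 and 0.177). Among Hox genes Hoxc4 had 10 counts at 24 h and 2 later, a ratio of 21.7 (24 h over later, 95% interval 4.62 to 204, exact Clopper-Pearson), and the other 6 tested did not pass. Xist, the RNA that silences an X chromosome, was looked at after its values were seen. It had 3 counts at 24 h and 183 later, a ratio of 14.1 (95% interval 4.74 to 68.8), at 21 and 12.7 CPM at 48 h and 23 and 16.4 at 60 h. Its antisense partner Tsix went from 89.4 and 54.7 CPM to 61.6 and 32.9 and then to 24.1 and 20.1, a log2 change of -1.16 (adjusted p = 0.00136), and without the strand setting their reads cannot be told apart where they overlap.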
